A study of Mus musculus with 6 samples.

Results

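*Trp53*, which encodes the transcription factor p53, and 9 genes that p53 is well known to activate were examined in RNA-seq of mouse E14 embryonic stem cells (ESCs) of 2 genotypes, WT and *Patz1* knockout (KO). The genes were chosen by symbol as established p53 targets, namely *Mdm2*, *Cdkn1a*, *Ccng1*, *Bax*, *Bbc3*, *Pmaip1*, *Trp53inp1*, *Sesn1* and *Zmat3*, because PATZ1, a zinc finger protein that the study examined at chromatin boundaries, has been described to bind p53. All 10 of these genes were among the 23420 symbols of the count files, and each was detected in every library. Each genotype had 3 libraries of total RNA, depleted of ribosomal RNA and prepared as stranded libraries. Both genotypes were grown with LIF, the MEK inhibitor PD0325901 and the GSK3 inhibitor CHIR99021, and the labels name no DNA-damaging agent. The KO was made with CRISPR/Cas9 in E14TG2a cells, from which single clones were taken. The labels name neither the KO clone nor how many clones the libraries came from. Effects of the genotype and of the clone or clones used therefore cannot be told apart. The study describes the libraries as biological replicates, a term that its methods define as independent differentiation experiments. Whether that definition covers undifferentiated ESCs, or whether these libraries were separate cultures, is not given in the sources used here. The p-values therefore measure the spread between these libraries.

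The p53 protein binds DNA as a tetramer at response elements made of a pair of similar decamers and activates genes of cell cycle arrest, apoptosis, DNA repair and metabolism. MDM2, a ubiquitin ligase and itself the product of a p53 target, marks p53 for degradation, so that the pathway holds itself in check and much of its control acts on the protein rather than on the mRNA. Mouse ESCs are known for abundant p53 and for the lack of a lasting arrest in G1 after DNA damage.

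*Patz1* itself, on chromosome 11, was the check on the labels. Its normalized counts were 1838, 1983 and 1843 for WT replicates 1, 2 and 3, against 853, 862 and 862 for the KO replicates. Normalized counts are the deposited counts divided by a size factor for each library. The KO retained 45.5% of the WT level, which is -1.14 as a log2 fold change, KO over WT (SE 0.10). Total counts ranged from 11040756 to 47721070, and replicate 3 was the shallowest of both genotypes and the richest in ribosomal RNA. *Rn45s*, the ribosomal RNA precursor, took 14.4% of counts in WT replicate 3 and 12.5% in KO replicate 3, against 1.79% to 3.03% in the other libraries. All 8 ESC markers examined were detected in every library, with summed levels of 150024 to 158509 in WT and 170103 to 176061 in KO. Summed primitive endoderm markers (5 genes) were 106 to 159 in WT and 143 to 201 in KO, and summed fibroblast markers (6 genes) 86.4 to 110 and 134 to 169. In each of these 3 lists 1 gene passed the test described below, as higher in KO. It was *Dppa5a* among the ESC markers, *Dab2* (32.6 in WT, 78.7 in KO) among the primitive endoderm markers and *Thy1* (72.5 and 129.9) among the fibroblast markers, and with the replicate block described below *Pou5f1* (DESeq2 adjusted p = 0.0405) and *Zfp42* (DESeq2 adjusted p = 0.0298) of the ESC markers also passed as higher. These 5 genes were named after their values were seen. Of all genes tested, 7.49% passed in either direction, and 14.6% with the block. *Col3a1*, *Postn* and *Lum* of the fibroblast markers received no adjusted p. *Dab2* and *Thy1* accounted for the higher sums, as the other markers of their lists were on average at or near their WT level or lower. Of the fibroblast markers, *Thy1* was the only gene above 3 counts in every library, and the collagen gene *Col3a1* was at or near 0. The collagen genes *Col1a1* (11.5 in WT, 9.16 in KO) and *Col1a2* (10.8 and 6.49) were detected at low levels. The part of these genes in the results was not tested.

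Promoter sequences of the members are shown first, because p53 recognises its targets by their sequence. RefSeq windows from 250 bases before to 50 bases after a transcription start (GRCm38.p6) were held for 7 of the 10 genes, with none for *Pmaip1*, *Trp53inp1* and *Zmat3*. The p53 decamer consensus, which is its own reverse complement, was found in 6 of these 7 genes, against 9.55% of the 27025 genes with a window. The decamer is in capitals with 15 bases on either side, 5′ to 3′ on the strand of the gene.
*Trp53*, chr11:69580269-69580308, plus strand: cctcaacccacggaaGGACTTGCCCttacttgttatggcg
*Mdm2*, chr10:117710920-117710959, minus strand: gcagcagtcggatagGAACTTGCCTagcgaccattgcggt
*Cdkn1a*, chr17:29090891-29090952, plus strand: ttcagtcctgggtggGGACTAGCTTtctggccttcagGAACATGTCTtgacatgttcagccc
*Ccng1*, chr11:40755447-40755486, minus strand: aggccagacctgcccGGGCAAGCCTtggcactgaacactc
*Bax*, chr7:45467075-45467114, minus strand: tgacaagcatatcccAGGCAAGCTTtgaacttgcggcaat
*Sesn1*, chr10:41887251-41887290, plus strand: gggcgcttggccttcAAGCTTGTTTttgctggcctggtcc
The matches began between 201 and 51 bases upstream of the transcription start of their window, and the match of *Sesn1* lay in the window of a start inside the annotated gene. *Cdkn1a* was the only member with a pair of decamers no more than 13 bases apart, a spacing found in 20 genes or 0.0740% of those with a window. Its decamers were 12 bases apart, and the 10 bases that directly follow the second fit the consensus at 9 of 10 positions. *Bbc3* had no match in its 3 windows. The G-rich sequence GGGAGGG, of the kind that MAZ and PATZ1 bind, was present on either strand in the windows of 4 of the 7 members (*Trp53*, *Mdm2*, *Cdkn1a* and *Bbc3*), against 23.8% of genes. No decamer overlapped it. *Cdkn1a* had 2 windows, with both decamers in 1 of them and the G-rich sequence only in the other. These matches describe letters only, and binding in these cells was not analysed here.

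The members were ordered in WT by their normalized counts per kilobase of exon. *Bax* (2883 ± 274, SD, n = 3) and *Ccng1* (2550 ± 119) stood highest and their libraries overlapped, followed by *Trp53* (1436 ± 252), *Trp53inp1* (879 ± 177), *Mdm2* (619 ± 12.9) and *Cdkn1a* (323 ± 36.6), which were each separated from their neighbours. *Bbc3* (131 ± 44.0), *Pmaip1* (121 ± 25.4), *Sesn1* (112 ± 14.1) and *Zmat3* (111 ± 36.9) were lowest and overlapped with each other. In KO the order of the upper 6 was the same on this scale, and *Ccng1* (2096 ± 107) no longer overlapped *Bax* (3039 ± 116). With the length of the longest transcript in place of all exons, *Bax* was at 4130 in WT and did not overlap *Ccng1* in either genotype, *Trp53* was at 1774, *Mdm2* at 1001 and *Cdkn1a* at 552 in WT. The order of the 4 lowest genes changed, *Trp53inp1* and *Mdm2* overlapped in WT, and in KO, where they also overlapped, the mean of *Mdm2* was the higher.

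The comparison asked whether mRNA of p53 or of its targets differed between WT and *Patz1* KO. Among the 10 genes, 1 passed an adjusted p of 0.05 (DESeq2, Benjamini-Hochberg over all genes), *Ccng1*, and it was lower in KO. Of the 15309 genes tested, 7.49% passed in either direction and 4.78% were lower. The log2 fold changes of the members were small, from -0.37 to 0.074 with 9 of 10 negative and a median of -0.12, against a median of 0.0087 over all genes tested. This median rested in part on single libraries, as leaving out WT replicate 1 gave -0.25, KO replicate 2 gave -0.21 and WT replicate 3 gave -0.073, the last with 6 of 10 values negative. An unadjusted p under 0.05 was found for 3 members, *Trp53*, *Ccng1* and *Sesn1*, as it was for 17.6% of all genes tested and for 43.2% of those on chromosome 11, where *Trp53* and *Ccng1* lie. Within replicate numbers, 5 members were lower in KO in all 3 pairs (*Trp53*, *Mdm2*, *Ccng1*, *Trp53inp1* and *Sesn1*), as were 26.1% of all genes tested. In bulk RNA, fewer cells expressing a gene and less RNA per cell cannot be told apart. With the replicate number as a block, which compares the libraries of equal number, 4 members passed and all were lower (*Trp53*, *Ccng1*, *Trp53inp1* and *Sesn1*), against 14.6% of 14567 genes in either direction and 7.95% lower. edgeR passed 0 members, against 6.41% of genes, and had 2 members at an unadjusted p under 0.05, against 21.1%. limma-voom passed 1 member, against 7.94% of genes.

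**Figure D1:**
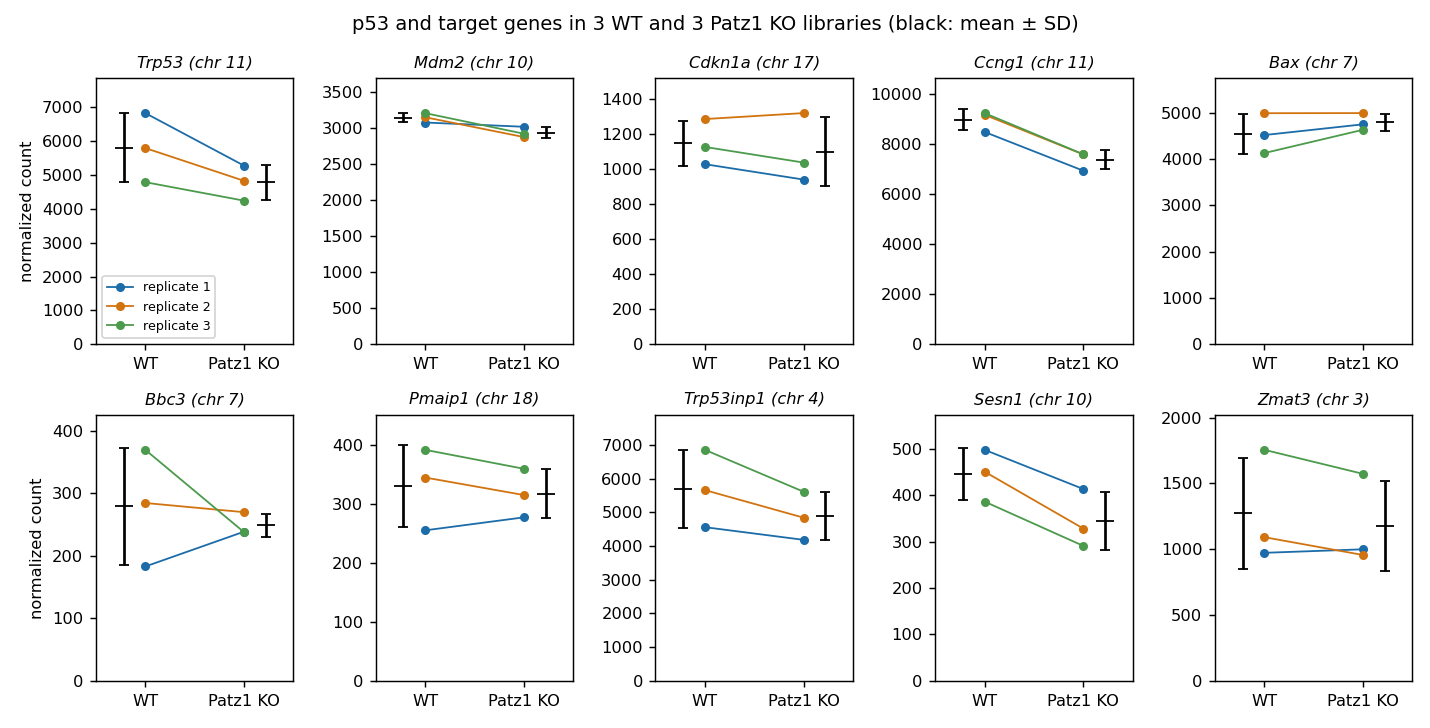
Normalized counts of *Trp53* and 9 target genes (vertical axes, each from 0) in the 3 WT and 3 *Patz1* KO libraries, with a colour and a line for each replicate number and the mean ± SD in black. *Ccng1* and *Mdm2* are the members whose WT and KO libraries do not overlap, and *Trp53*, *Trp53inp1* and *Sesn1* are lower in KO at each replicate number while the libraries of the genotypes overlap.

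*Trp53* (chromosome 11, 69580359 to 69591873, plus strand, GRCm38) had 6834, 5799.5 and 4792 normalized counts in the WT libraries, in order of replicate number, and 5279, 4831 and 4244 in the KO libraries. KO was lower within each replicate number, but WT replicate 3 lay below KO replicates 1 and 2. Means were 5808 ± 1021 in WT and 4785 ± 519 in KO, and the log2 fold change of -0.28 (SE 0.13, 95% interval -0.54 to -0.016) did not pass (DESeq2 adjusted p = 0.243). With the replicate block the same gene passed at -0.28 (SE 0.062, DESeq2 adjusted p = 0.000182). Without the block it passed in 1 of the 6 fits that each left out a library, without WT replicate 3 (-0.40, DESeq2 adjusted p = 0.0135). Without WT replicate 1 the value was -0.15 (DESeq2 adjusted p = 0.818). The level of the RNA does not measure p53 protein, which was not analysed here.

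*Mdm2* (chromosome 10, 117688875 to 117710758, minus strand), the ubiquitin ligase and negative feedback gene, gave 3079, 3152 and 3209 in WT and 3019, 2877 and 2923 in KO. The KO libraries were all below the WT libraries, by a small margin. Such a separation in either direction was found in 25.6% of all genes tested, and with KO lower in 13.8%. Among the 10 members it was found in 2, *Mdm2* and *Ccng1*, both lower. The log2 fold change was -0.097 (SE 0.089, 95% interval -0.27 to 0.077, DESeq2 adjusted p = 0.694).

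Genes of cell cycle arrest are represented by *Cdkn1a*, which encodes the cyclin-dependent kinase inhibitor p21, and *Ccng1*, which encodes cyclin G1. *Cdkn1a* (chromosome 17, 29090976 to 29100727, plus strand) gave 1029, 1287 and 1128 in WT and 941, 1321 and 1039 in KO. The genotypes were interleaved, with the highest level in a KO library and the lowest in another. Its log2 fold change was -0.059 (SE 0.15, 95% interval -0.35 to 0.23, DESeq2 adjusted p = 0.919). A transcript on the opposite strand overlaps 273 of its 3553 exon bases, and if strand was not used in the counting their reads cannot be told apart.

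*Ccng1* (chromosome 11, 40748552 to 40755311, minus strand) gave 8475, 9161 and 9227 in WT and 6927, 7577 and 7582 in KO. Every KO library lay below every WT library, with similar gaps at each replicate number (log2 ratios -0.29, -0.27 and -0.28). Means were 8955 ± 416 and 7362 ± 377, so that KO held 82.2% of the WT level, at a log2 fold change of -0.28 (SE 0.091, 95% interval -0.46 to -0.10, DESeq2 adjusted p = 0.0303). The replicate block gave an SE of 0.053 and a DESeq2 adjusted p of 3.99e-06. The call did not hold with edgeR (adjusted p = 0.0801). It was also lost with DESeq2 without WT replicate 2 (adjusted p = 0.227), WT replicate 3 (0.0578), KO replicate 1 (0.302) or KO replicate 2 (0.123). The log2 fold change was -0.28 with edgeR and ran from -0.32 to -0.24 when each library was left out in turn.

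Apoptosis genes are represented by *Bax*, a pore-forming protein of the outer mitochondrial membrane, and by *Bbc3* and *Pmaip1*, which encode the BH3-only proteins PUMA and NOXA. *Bax* (chromosome 7, 45461697 to 45466898, minus strand) gave 4516, 4987 and 4126 in WT and 4747, 4989.7 and 4629.9 in KO. It was the only member with a positive fold change, 0.074 (SE 0.10, 95% interval -0.12 to 0.27, DESeq2 adjusted p = 0.832), and the libraries overlapped. Leaving out WT replicate 2 gave 0.15, leaving out KO replicate 2 gave 0.045 and leaving out WT replicate 3 gave 0.010. A gene model on the same strand, absent from the count files, shares 192 of its 1576 exon bases. *Bbc3* (chromosome 7, 16308393 to 16318205, plus strand) gave 183, 285 and 369.6 in WT and 239, 269.9 and 238 in KO. The WT libraries spanned the KO libraries, and the direction turned with WT replicate 3, from -0.13 (SE 0.22, DESeq2 adjusted p = 0.875) to 0.097 without it. *Pmaip1* (chromosome 18, 66458533 to 66465565, plus strand) gave 255, 345 and 392 in WT and 277, 315 and 359 in KO, giving -0.052 on the log2 scale (SE 0.18, 95% interval -0.41 to 0.31, DESeq2 adjusted p = 0.943). For *Bbc3* the interval ran from -0.56 to 0.30, and for both genes the difference was within the spread between libraries.

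The remaining targets act in stress responses beyond arrest and death. *Trp53inp1* (chromosome 4, 11156431 to 11174379, plus strand), a p53-induced nuclear protein of stress and autophagy, gave 4559, 5659.7 and 6853 in WT and 4184, 4841 and 5610.4 in KO. Its levels overlapped between genotypes and were highest in replicate 3 of both, and KO was lower at each replicate number. The log2 fold change was -0.22 (SE 0.15, DESeq2 adjusted p = 0.507), and with the block -0.21 (SE 0.060, DESeq2 adjusted p = 0.00587). Without the block leaving out WT replicate 3 gave -0.072, KO replicate 1 gave -0.12 and WT replicate 1 gave -0.36. *Sesn1* (chromosome 10, 41809935 to 41908424, plus strand), which encodes sestrin 1, an inhibitor of mTORC1 signalling, gave 498, 451 and 386 in WT and 413, 328 and 291 in KO. It had the lowest fold change of the members, -0.37 (SE 0.17, 95% interval -0.69 to -0.040), and did not pass without the block (DESeq2 adjusted p = 0.199) but did with it (DESeq2 adjusted p = 0.0358). *Zmat3* (chromosome 3, 32334792 to 32366014, minus strand), an RNA-binding zinc finger protein, gave 973, 1092 and 1755 in WT and 999, 956 and 1572 in KO. Replicate 3 stood above the other libraries in both genotypes, by more than the genotypes differed, and the log2 fold change was -0.11 (SE 0.33, 95% interval -0.77 to 0.54, DESeq2 adjusted p = 0.933).

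Several members differed between replicate 3 and the mean of replicates 1 and 2 in the same direction in both genotypes. Relative to that mean, replicate 3 was at 1.70 (WT) and 1.61 (KO) for *Zmat3*, at 1.34 and 1.24 for *Trp53inp1* and at 1.31 and 1.21 for *Pmaip1*. It was at 0.759 and 0.840 for *Trp53* and at 0.814 and 0.785 for *Sesn1*. *Ccng1* was at 1.05 in both, and *Bbc3* was at 1.58 in WT but 0.935 in KO. Replicate 3 was also the shallowest and the richest in ribosomal RNA, and the part of either in these levels was not tested. Without replicate 3 of either genotype, 2 members passed (DESeq2, lower), *Ccng1* (adjusted p = 0.0210) and *Trp53* (adjusted p = 0.0202), against 8.77% of all genes in either direction and 5.52% lower.

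**Figure D2:**
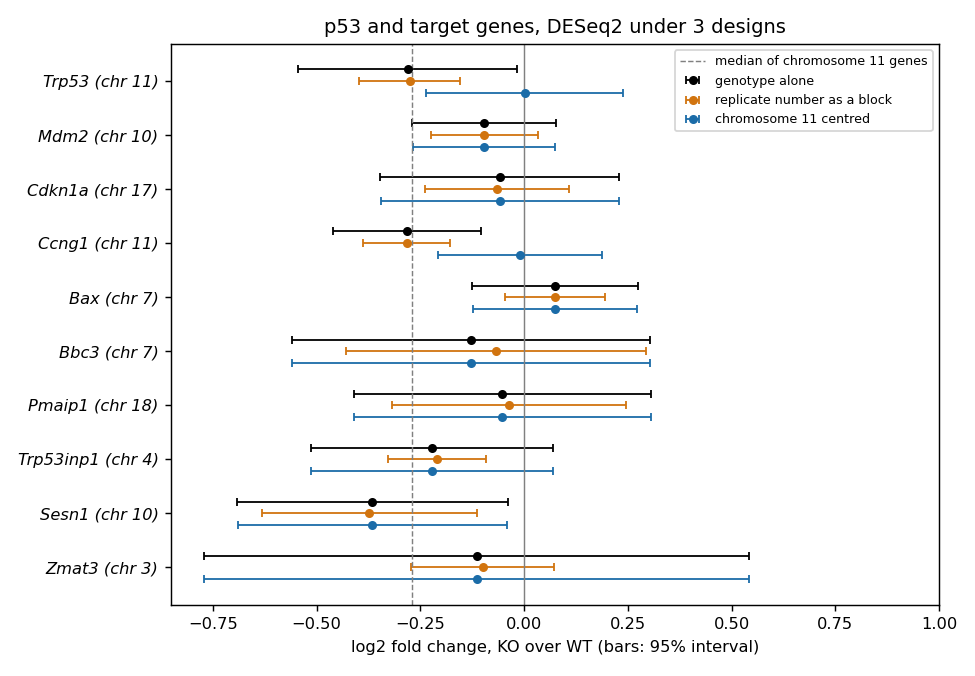
Log2 fold change, KO over WT, of the 10 genes with 95% intervals, in DESeq2 with genotype alone (black), with the replicate number as a block (orange) and after centring chromosome 11 (blue), beside the median of all chromosome 11 genes tested (dashed line). *Trp53* and *Ccng1* lie at the dashed line in the first 2 fits and at 0 after centring, while the other genes do not move with centring.

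*Trp53* and *Ccng1* both lie on chromosome 11, whose genes were lower as a whole in KO. Of the 961 chromosome 11 genes with a mean of at least 50 normalized counts, 872 (90.7%) had a negative log2 fold change, with a median of -0.26 and quartiles of -0.37 and -0.15. The fold changes of *Trp53* and *Ccng1* were ordinary for the chromosome. The log2 fold change was lower than that of *Trp53* in 442 of the 961 genes and lower than that of *Ccng1* in 432. Of the 1260 chromosome 11 genes tested, 20.2% passed lower in KO (DESeq2), and of the 1211 tested with the block 39.1% did, so the calls of these members are also to be read against those shares.

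In each library, the deviation of log2(normalized count + 1) of *Trp53* from its mean over the 6 libraries was compared with the median deviation of chromosome 11. The *Trp53* deviations were 0.38, 0.15 and -0.13 in WT and 0.012, -0.12 and -0.30 in KO, and the chromosome medians 0.22, 0.11 and 0.066 in WT and -0.12, -0.13 and -0.15 in KO. The KO minus WT difference was -0.27 for both (exact two-sided permutation p = 0.3 for *Trp53*). With the chromosome median subtracted, the difference in *Trp53* was -0.0046 (exact permutation p = 1.0), and it ran from -0.10 without WT replicate 3 to 0.076 without WT replicate 1. For *Ccng1* it was -0.28 before (exact permutation p = 0.1) and -0.017 after (exact permutation p = 0.8). With 3 against 3 libraries this test cannot go below 0.1. After chromosome 11 was centred in the DESeq2 fit, the log2 fold change of *Trp53* was 0.0012 (adjusted p = 0.999) and that of *Ccng1* -0.010 (adjusted p = 0.988), and 0 of the 10 members passed, with 917 of 16053 genes (5.71%) passing. Of the 8 members on other chromosomes, 0 passed with genotype alone and 1 had an unadjusted p under 0.05, against 6.26% and 15.4% of all genes outside chromosome 11. Their values had a median log2 fold change of -0.11, against 0.026 for those genes, and the median of these 8 was -0.25 when WT replicate 1 was left out, -0.057 for KO replicate 1 and -0.031 for WT replicate 3, the last with 4 of 8 negative. Centring together with the block left *Trp53inp1* (DESeq2 adjusted p = 0.00476) and *Sesn1* (DESeq2 adjusted p = 0.0425) lower, against 4.81% of 15311 genes lower and 11.4% in either direction.

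**Figure D3:**
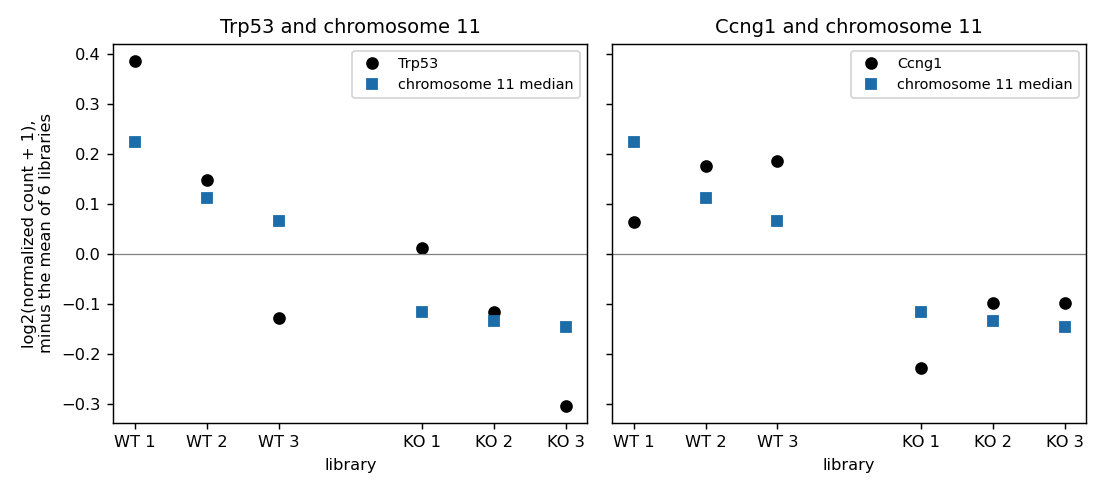
Deviation of *Trp53* (left) and *Ccng1* (right) from the mean over 6 libraries, on the log2(normalized count + 1) scale, as circles, with the median deviation of 961 chromosome 11 genes as squares, in each library. The squares are above 0 in the WT libraries and below 0 in the KO libraries, and *Trp53* scatters around them by up to 0.19.

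The genes whose levels followed *Trp53* most closely over the 6 libraries, by Pearson correlation of log2(normalized count + 1) among 11523 other genes, were *Psme3* (r = 0.998), *Tmem97* (0.997), *Ddx5* (0.996), *Nup85* (0.994) and *Rbfa* (0.993). The first 4 lie on chromosome 11 and *Rbfa* on chromosome 18. The 6 libraries differ in genotype, depth and ribosomal RNA content, which all of these genes have in common, and the values are a description.

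Protein-coding genes within 200 kb of *Trp53* were examined as its neighbourhood. Of 22 such genes 21 were tested, 15 had a negative log2 fold change, and the median was -0.29. Of these, 3 passed as lower (DESeq2), against 20.2% of chromosome 11 genes, and 4 in either direction, against 21.3%. *Wrap53*, whose start is a neighbour of the *Trp53* start on the opposite strand and which encodes a telomerase cofactor, fell from 1007 ± 68.1 to 764 ± 82.6 normalized counts (log2 fold change -0.41, SE 0.12, DESeq2 adjusted p = 0.0160). The decamer in the *Trp53* promoter shown above also lies in the window of *Wrap53*, read on the other strand. The neighbour on the other side, *Atp1b2*, a sodium pump subunit, had 80.4 in WT and 54.1 in KO (log2 fold change -0.56, DESeq2 adjusted p = 0.343). *Mpdu1* (-0.47, DESeq2 adjusted p = 0.0361) and *Sox15* (-0.72, DESeq2 adjusted p = 0.0486) were also lower, and *Naa38*, a subunit of an N-terminal acetyltransferase, was higher (0.45, SE 0.10, DESeq2 adjusted p = 0.000587). In the 6 fits that each left out a library, *Naa38* passed in 6, *Wrap53* in 3, *Mpdu1* in 1 and *Sox15* in 0. After centring, 2 of these genes passed, *Naa38* and *Zbtb4*, both higher, and the median of the neighbourhood was -0.0094.

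**Figure D4:**
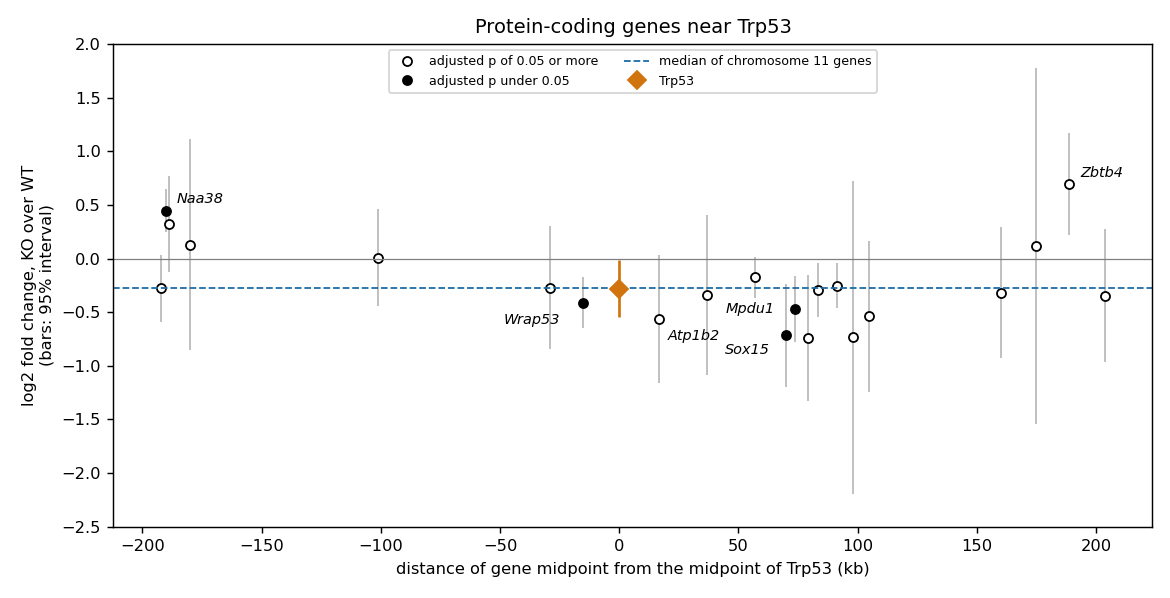
Log2 fold change, KO over WT, with 95% intervals for the 21 tested protein-coding genes within 200 kb of *Trp53*, by distance of gene midpoints in kb, with filled points for an adjusted p under 0.05 and the chromosome 11 median as a dashed line. *Trp53* (diamond) lies at the dashed line, and *Naa38* lies above 0.

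Other genes of the pathway were read from lists. Of 29 further p53 targets 2 passed (6.90%), both lower, close to the 7.49% of all genes. Their median log2 fold change was 0.0021, with 14 negative values, and it ran from -0.056 to 0.035 when WT replicate 1 or WT replicate 3 was left out. *Dcxr*, a dicarbonyl reductase on chromosome 11, fell from 451 ± 37.2 to 283 ± 25.8 normalized counts (log2 fold change -0.67, SE 0.15, DESeq2 adjusted p = 0.000224), and after centring of chromosome 11 its value was -0.39 (DESeq2 adjusted p = 0.0850, and 0.0369 with the block). *Ei24*, on chromosome 9, which encodes a protein of the endoplasmic reticulum linked to autophagy, fell from 2223 ± 40.4 to 1827 ± 59.1 (-0.28, SE 0.093, DESeq2 adjusted p = 0.0361). *Ei24* passed in 1 of the 6 fits that left out a library, and *Dcxr* in all 6. The most abundant of the others, the exonuclease gene *Aen* and the glycolysis regulator *Tigar*, had log2 fold changes of 0.078 and -0.078. With the block *Btg2* (0.21, DESeq2 adjusted p = 0.0490) and *Gadd45a* (0.45, DESeq2 adjusted p = 0.0314), both antiproliferative genes, also passed, as higher, which made 4 of 28 (14.3%) against 14.6% of all genes. With block and centring together 1 further target passed as higher and 2 as lower (10.3% of 29, against 11.4% of all genes).

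The counts that follow are to be read against 7.49% of all genes passing and 17.6% at an unadjusted p under 0.05 with DESeq2, 6.41% and 21.1% with edgeR, and 7.94% and 23.2% with limma-voom. Of 21 regulators of p53, 0 passed with DESeq2, edgeR or limma-voom, and 1 had an unadjusted p under 0.05 with each. Their median log2 fold change was 0.053. With the block *Prkdc*, the DNA-dependent protein kinase, passed at 0.23 (DESeq2 adjusted p = 0.0181). The ribosomal protein genes *Rpl5* and *Rpl11*, whose products hold MDM2 in check, were the most abundant and had log2 fold changes of 0.053 and 0.072, which are uncertain because both have near-identical pseudogene copies. Of 12 genes of the BCL2 family, which set the threshold for BAX, 0 passed with DESeq2, edgeR or limma-voom, and 1, 2 and 3 respectively had an unadjusted p under 0.05. Their median was 0.081, and 0.030 without KO replicate 1 or 0.13 without KO replicate 3. *Mcl1*, a survival protein, was at 6961 normalized counts in WT and 7348 in KO, and *Bid*, an activator of BAX, at 2463 and 2763. *Hrk*, a BH3-only gene, had 35.5, 51.5 and 101 in WT and 82.4, 87.2 and 97.8 in KO, and passed as higher when WT replicate 3 was left out (DESeq2 adjusted p = 0.0120). Of 10 cell cycle genes repressed through p21 and the DREAM complex, 0 passed and 0 had an unadjusted p under 0.05 (DESeq2; edgeR 0 and limma-voom 0 on both counts). Their median of 0.023 was near 0 and changed sign with single libraries, since leaving out WT replicate 3 gave -0.059, KO replicate 1 gave -0.011 and KO replicate 2 gave -0.014. *Ccnb1*, cyclin B1, and *Mybl2*, which encodes the transcription factor B-Myb, had log2 fold changes of 0.022 and 0.0072.

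Of 10 paralogs of the members 9 were tested, with a median log2 fold change of 0.26. An unadjusted p under 0.05 was found for 5 of them (55.6%), against 17.6% of all genes, and 1 passed (11.1%). Without WT replicate 2 or KO replicate 2 the former count was 2 of 9 (22.2%), against 13.4% and 12.2% of all genes, and without WT replicate 1 or KO replicate 1 it was 3. That count was 4 without WT replicate 3 and 6 without KO replicate 3 (66.7%, against 17.1% of all genes). The median fell to 0.16 without KO replicate 3 and to 0.13 without replicate 3 of both genotypes or with the count filter. *Cdkn1c*, an imprinted gene that encodes p57 and is a paralog of *Cdkn1a*, rose from 100.2 ± 29.8 to 272 ± 54.1 normalized counts (log2 fold change 1.45, SE 0.25, DESeq2 adjusted p = 4.82e-07), and with the block *Ccng2*, a paralog of *Ccng1*, also passed as higher (0.73, DESeq2 adjusted p = 0.0307). *Trp63*, a paralog of *Trp53*, was not tested because its counts were 10, 5 and 0 in WT and 0 in each KO library, and a count of 0 allows up to 3.

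**Figure D5:**
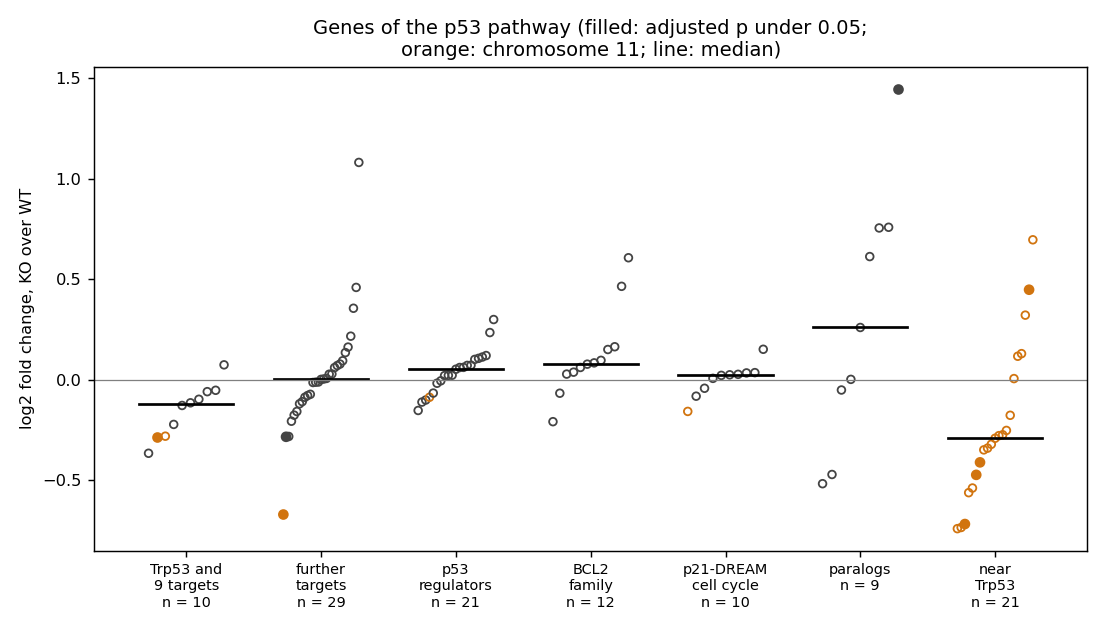
Log2 fold changes, KO over WT, of *Trp53* and 9 targets and of the other lists of the p53 pathway, with filled points for an adjusted p under 0.05, orange for genes of chromosome 11, black bars for the median of each list and a line at 0. The medians of the further targets, regulators, BCL2 family and cell cycle genes lie between 0.0021 and 0.081 with all 6 libraries, and that of the paralogs at 0.26.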

How the data were processed

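RNA-seq libraries of 3 WT and 3 *Patz1* KO samples were used, grouped by their titles. The authors deposited raw read counts per gene, with no normalization. The submitters' processing notes name TopHat2 (2.1.1), Bowtie2 (2.3.1.0), featureCounts (1.6.2), DESeq2 and the build mm10, with no roles, and the study's methods give mapping with Bowtie 2 to mm10. The annotation and the strand setting of the counting are not given in the sources used here.

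Counts were tested with the Wald test of DESeq2 (1.42.0), two-sided, with genotype alone, median-of-ratios size factors, default independent filtering (0.1) and Benjamini-Hochberg adjustment at 0.05. Alternatives were edgeR (4.0.16), limma-voom (limma 3.58.1), TMM size factors, a count filter (10 counts in 3 or more libraries), a fit with independent filtering off, a block for the replicate number, centring chromosome 11 by its median in each library, and leaving out libraries. Positions came from the GENCODE M21 annotation (GRCm38, which is mm10) for 23037 of 23420 symbols. Counts ranged from 11040756 to 47721070 per library, so 3 counts corresponded to 1.69 to 8.21 normalized counts, which covers counting error only. The 15 pairs of libraries differed by more than counting noise, with a chi-square of 8.80 or more per degree of freedom.

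Libraries of equal replicate number deviated together from the means of their genotypes, with correlations of 0.469, 0.619 and 0.684 across 11524 genes, while other pairs gave -0.542 to 0.138. The pairing comes from the shared numbers in the titles and these values.

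The code was tested on simulated counts, with changes larger than those of the members and with neither a replicate effect nor a shift of chromosome 11. The p53 consensus was searched on both strands in RefSeq promoter windows rather than in a wider region, as no genome sequence was used here. The members and lists were chosen with earlier results of these data known. Named genes are the members, *Patz1*, the list genes that passed (at most 5) or the 2 most abundant, the neighbours of *Trp53* and the 5 genes most correlated with it. Genes that passed only with the block or with a library left out were named after their values were seen.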

Additional observations from a re-analysis of the deposited data

How the results depend on the processing

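Of 150 log2 fold changes of the 10 members under 15 alternative fits, 125 kept their direction and side of the threshold, 7 lost the call, 7 gained it and 11 changed sign. Members that passed, 1 with genotype alone, were 0 with edgeR, 4 with the replicate block, 0 with chromosome 11 centred, 2 with both, 2 without replicate 3 of both genotypes, and 0 to 1 when each library was left out in turn. Further targets that passed (2) were 4 with the block, 1 centred, 3 with both and 1 to 3 on leaving out a library. Regulators (0) gave 1 with the block, alone or with centring. BCL2 family genes (0) gave 1 without replicate 3 of both genotypes and 0 to 1 on leaving out a library. Paralogs (1) gave 2 with the block, alone or with centring, 2 without replicate 3, and 1 to 2 on leaving out a library (*Trp73* passed as lower without KO replicate 3). Genes near *Trp53* (4 of 21) were 10 of 20 with the block, against 492 of 1211 chromosome 11 genes. They were 2 of 21 centred, against 78 of 1318, and 7 of 21 without replicate 3 of both genotypes, against 373 of 1245. On leaving out a library they were 1 to 6 of 21, against 8.45% to 29.1% of chromosome 11 genes. All genes (1146) were 2131 with the block, 1745 with block and centring, and 583 to 1341 on leaving out a library. Beside the calls given in the report, the replicate block added those of *Zbtb4* (higher, DESeq2 adjusted p = 0.0240) and, lower, of *Psme3* (0.0262), *Tmem97* (2.60e-05) and *Nup85* (0.000543), and changed no other call of a gene named.

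Log2 fold changes that changed sign were those of *Trp53* centred (0.0012) and centred with the block (0.0014), of *Bbc3* with limma-voom (0.053) and without replicate 3 of both genotypes (0.13), and those of 4 members when a library was left out. Those ranged from -0.22 to 0.048 for *Cdkn1a*, -0.36 to 0.097 for *Bbc3*, -0.22 to 0.062 for *Pmaip1* and -0.37 to 0.17 for *Zmat3*. The corresponding ranges without a change of sign were -0.40 to -0.15 for *Trp53*, -0.36 to -0.072 for *Trp53inp1* and 0.010 to 0.15 for *Bax*. None of these had passed with genotype alone. Apart from centring, which subtracts the fall of chromosome 11, the cause was not tested. The member with the fewest counts in a library was *Bbc3*, with 90 in KO replicate 3.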
